A study of Rattus norvegicus with 8 samples.

Results

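Open-sea tiles that were highly methylated in normal rat bladder were followed into bladder cancers induced by dimethylarsinic acid (DMA). A tile was a fixed 200-bp segment of the rat genome (build rn6) that held at least 3 measured CpGs in each of 8 samples. It was open sea where it lay on chromosomes 1 to 20, held fewer than 10 CpGs on average, and no CpG-dense tile (at least 10 CpGs in every sample) began within 2000 bp of its start. Its level was the share of methylated calls among all calls over its CpGs, in %. The tiles described here were the open-sea tiles whose mean level over the 3 control bladders exceeded 80%. There were 99229 of them, 53.6% of the 185145 open-sea tiles and 38.4% of all 258144 covered tiles. They were chosen by the control levels, so the control levels are a description and no result.

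In mammalian somatic cells, most CpGs outside CpG islands carry a methyl group, which the maintenance enzyme DNMT1, guided by UHRF1, copies onto the new strand at each DNA replication, while DNMT3A and DNMT3B set new methyl groups. The open sea is the CpG-poor DNA far from the islands: the bodies of genes, the DNA between genes, most repeats and many distal enhancers. Tumours often lose methylation there, in some cases over long, late-replicating domains and in others at short regulatory sites. A loss is called shared when several tumours have it and private when it is found in a single tumour. DMA is an organic metabolite of arsenic that causes urothelial carcinoma (UC) of the rat bladder.

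Methylation was measured by reduced representation bisulfite sequencing (RRBS), in which DNA is cut with TaqαI and MspI, treated with bisulfite and sequenced, so that unmethylated cytosines are read as T. Both groups were male F344/DuCrj rats, 10 weeks old at the start, and drank water with 0 ppm DMA (3 controls) or 200 ppm DMA (5 UCs) in a study of 104 weeks, from which moribund rats were also taken before its end. The files held 51434938 to 73836223 calls at 2526077 to 2821347 CpGs per sample. The UCs were taken by their appearance and their histology was not examined, and the sources do not say whether the 5 UCs came from 5 animals. The labels name the controls urothelium and the methods bladder tissue, so that in these bulk samples a change in cell composition and a change in methylation within cells cannot be told apart. No gene expression was measured in these files, so cell type markers could not be checked in them. The study also measured gene expression of the UCs by microarray, which was not used here.

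A highly methylated open-sea tile held few CpGs, with a median of 4 per sample (range of the means 3 to 9.88), and 43.4% of the tiles held fewer than 4 on average. The median number of calls per tile was 72 to 105 per sample. At least 30 calls were present in every sample in 72196 tiles (72.8%), and the shallowest tile had 9. The 2 tiles just inside the limit of 80% were chr16:51401-51600, with a control mean of 80.0002% and UC levels of 64.2% to 81.6%, and chr1:82074001-82074200, with a control mean of 80.0006% and UC levels of 1.01%, 4.38%, 21.95%, 8.37% and 2.04% in UC 1 to UC 5. The 2 tiles just outside had a control mean of 80%. Of these, chr7:142759601-142759800 had UC levels of 20.6%, 8.51%, 76.0%, 2.78% and 8.82%, and chr8:127094601-127094800 had UC levels of 77.8% to 100%. On each side of the limit, 1 of the 2 tiles was under 60% in at least 4 UCs and the other in none.

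The mean level over the 99229 tiles was 89.2%, 89.4% and 89.3% in control 1 to control 3, and 89.0%, 88.7%, 87.9%, 86.5% and 86.5% in UC 1 to UC 5. The group means were 89.3% ± 0.0962 (SD, n = 3) and 87.7% ± 1.18 (SD, n = 5). The small shift of the mean hid changes at both ends of the distribution. The lowest 5% of the tiles lay at or below 78.9% to 79.1% in the controls and at or below 65.0%, 63.8%, 69.2%, 60% and 59.2% in UC 1 to UC 5. At the upper end, the median tile was at 89.9% to 90% in the controls and at 93.4%, 93.3%, 90.4%, 90.9% and 91.2% in the UCs. Tiles over 95% made up 16.2% to 17.5% in the controls, against 37.5%, 37.0%, 21.3%, 27.5% and 29.6% in the UCs. Tiles over 80% made up 92.7% to 93.0% in the controls, against 85.6%, 84.8%, 83.9%, 78.8% and 78.8% in the UCs. The UCs thus had more tiles than the controls at both ends of the distribution.

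Because the controls had chosen the tiles, each control was also compared with the UCs on tiles chosen by the other 2 controls. On such tiles, the control left out had a median of 89.8% to 90% and had 16.04% to 17.4% of the tiles over 95%. Among tiles with at least 30 calls in every sample these shares were 14.002% to 15.3% in the control left out and 19.2% to 37.0% in the UCs. The higher upper end of the UCs was therefore also present against a control that had no part in the choice. UC 3 was the nearest to the controls and UC 1 and UC 2 were the farthest.

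**Figure D1:**
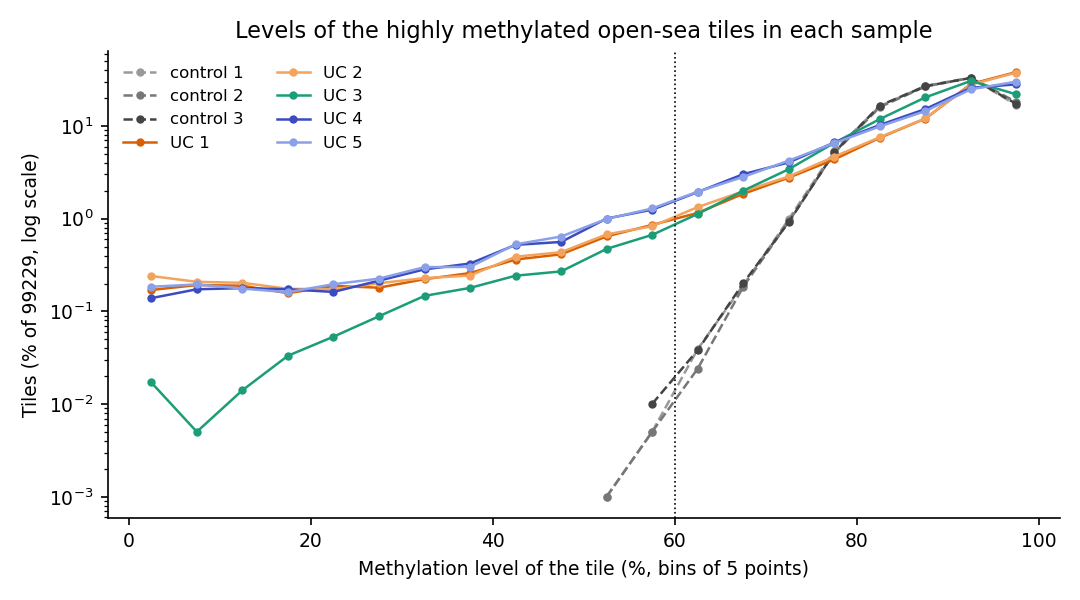
Share of the 99229 highly methylated open-sea tiles (%, log axis) in each bin of 5 points of methylation level (%, horizontal axis), with 1 line per sample, controls dashed; the dotted line is at 60% and bins without a tile are not drawn. The controls end between 50% and 60% because they chose the tiles, whereas the UCs extend to 0%, with UC 3 below the other UCs under 40%.

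A tile was counted as lost in a UC when its level there was under 60%, a limit that uses that UC's own level alone. UC 1 lost 3808 tiles (3.84%), UC 2 lost 3975 (4.01%), UC 3 lost 2176 (2.19%), UC 4 lost 4953 (4.99%) and UC 5 lost 5157 (5.20%). On tiles chosen by 2 controls, the control left out was under 60% at 162 to 208 tiles (0.164% to 0.210%), and the UCs were under 60% at 2.18% to 5.64% of the same tiles. In every UC the share lost was thus at least 10 times that of a control left out.

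Losses were mostly partial. The median level of the lost tiles was 44.9%, 44.1%, 50%, 47.7% and 47.5% in UC 1 to UC 5, and 58.2% to 75.5% of the lost tiles lay between 40% and 60%. Nearly complete losses, under 20%, numbered 704, 822, 69, 659 and 712, against 0 to 1 tile in a control left out (up to 0.00101%). UC 3 had the fewest of them by a wide margin. Within the lost tiles, 74.5% to 77.5% of the single CpGs with at least 10 reads were under 60%, compared with 3.73% to 6.57% of those in tiles not lost. These CpGs also make up the level of the tile, so the difference is not independent of the limit.

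The share lost fell with the level in the controls. Of the 7751 tiles with a control mean of 80% to 82%, 7.77% to 15.9% were lost in a UC, and of the 11857 tiles over 95%, 0.287% to 0.590%. The share lost in all 5 UCs fell from 4.21% to 0.0422% between the same bins. The 6795 open-sea tiles at 78% to 80%, just under the limit, continued this order with 10.7% to 19.4% lost and 5.89% lost in all 5 UCs. This order is partly set by the limits, since a tile over 95% must fall by over 35 points to be under 60% and a tile at 80% by 20.

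For the comparison of the groups, methylated and unmethylated calls were fitted in a quasi-binomial model over all covered tiles. A tile was called when the p-value adjusted by the Benjamini-Hochberg method was under 0.05 and the group means differed by over 10 points. With all 8 samples, 5140 of the 99229 tiles (5.18%) were called lower in UCs beside 7.30% of all tiles, and 1803 (1.82%) were called higher beside 9.50% of all tiles. The controls of this fit had chosen the tiles, so nothing is read from these counts. Of the tiles lost in all 5 UCs, 1040 of 1043 were called lower, and of the tiles lost in exactly 1 UC, 515 of 3153. These subsets were also set by the UC levels that were tested, so the limits largely fix both counts and nothing is read from them.

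A comparison that is independent of the choice was obtained by choosing open-sea tiles over 80% in 1 control and testing them with the other 2 controls against the UCs. Of 97689 tiles chosen on control 1, 2312 (2.37%) were called lower, with a median difference of -32.5 points, beside 4.38% of all tiles. With control 2 these were 2700 of 98572 (2.74%), with a median difference of -35.4 points, beside 4.27% of all tiles. With control 3 they were 2340 of 97746 (2.39%), with a median difference of -36.6 points, beside 4.08% of all tiles. The share called lower was below that of all tiles in each of the 3 comparisons. The 3 comparisons share the UCs and, in pairs, a control.

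Of the 99229 tiles, 90537 (91.2%) were lost in no UC and 8692 (8.76%) in at least 1. A loss in exactly 1 UC was found in 3153 tiles, in 2 UCs in 2688, in 3 in 907, in 4 in 901 and in all 5 in 1043. The commonest pattern was a loss in UC 4 and UC 5 alone, with 1551 tiles. It was followed by a loss in all 5 UCs (1043), in UC 5 alone (946), in UC 1 and UC 2 alone (810), in UC 4 alone (800) and in UC 1, UC 2, UC 4 and UC 5 without UC 3 (750). UC 2 alone had 503 tiles, UC 3 alone 468 and UC 1 alone 436. Pairs that crossed these lines were rare, with 26 to 60 tiles each for a loss in 2 UCs other than UC 1 with UC 2 or UC 4 with UC 5.

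In most tiles lost in a single UC, another UC lay between 60% and 80%. All other UCs were over 80% in 5 of the 436 tiles lost in UC 1 alone (1.15%), in 13 of 503 for UC 2 (2.58%), in 21 of 800 for UC 4 (2.63%) and in 23 of 946 for UC 5 (2.43%). For UC 3 alone this held in 133 of 468 tiles (28.4%), and for the patterns of 2 UCs in 153 of 810 (18.9%) for UC 1 with UC 2 and in 340 of 1551 (21.9%) for UC 4 with UC 5. With this stricter reading, only 195 tiles were lost in exactly 1 UC, and 133 of them were lost in UC 3.

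**Figure D2:**
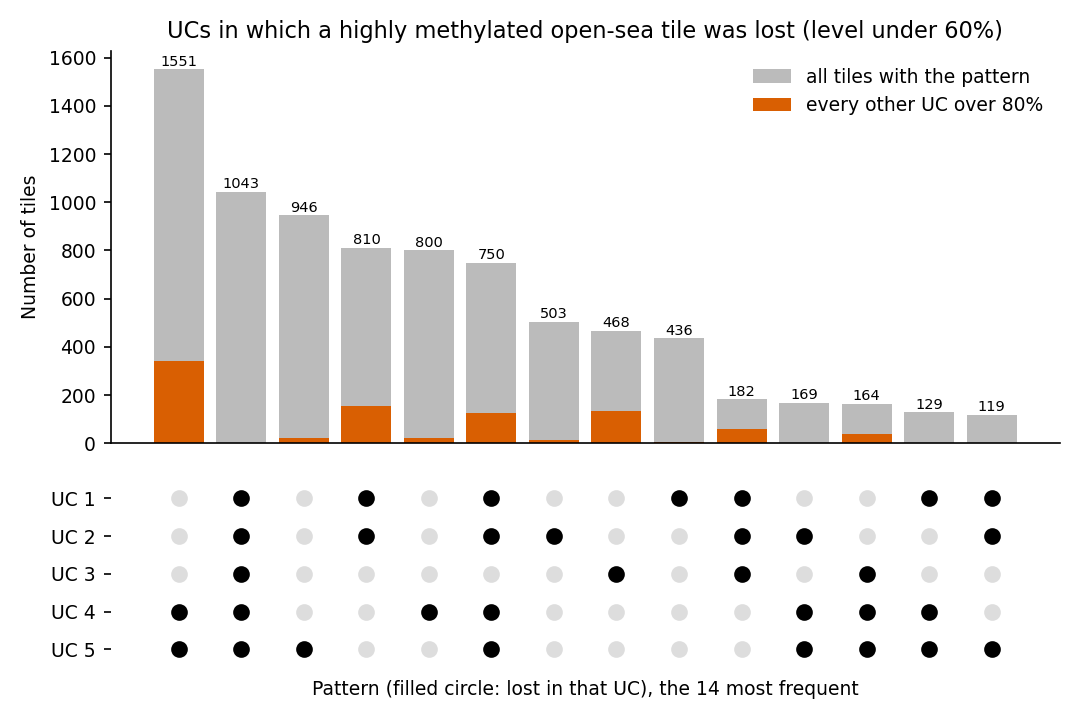
Number of highly methylated open-sea tiles (vertical axis) for each of the 14 most frequent sets of UCs in which a tile was under 60%; filled circles mark the UCs of the set, grey bars count all tiles of the set and orange bars those in which every UC outside the set was over 80%. The set of UC 4 and UC 5 is the largest with 1551 tiles, and the orange part is at most 23 tiles for UC 1, UC 2, UC 4 or UC 5 alone.

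The overlap of the lost tiles followed the same lines. UC 1 and UC 2 shared 3102 lost tiles, 81.5% of those of UC 1 and 78.04% of those of UC 2. UC 4 and UC 5 shared 3873, 78.2% and 75.1% of theirs. UC 3 shared 1350 to 1400 tiles with each other UC, which were 62.0% to 64.3% of its own losses and 27.03% to 36.0% of theirs. Where UC 1 was under 60%, the median level of UC 2 was 43.9% and that of UC 4 was 55.2%. Where UC 3 was under 60%, the median of the other UCs was 42.6% to 49.1%, beside 50% in UC 3 itself. Most losses of UC 3 were thus also under 60% in each other UC, and depth was not compared tile by tile.

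The root mean square difference of the levels was 5.997 to 6.15 points between controls, 5.65 points between UC 1 and UC 2 and 6.04 points between UC 4 and UC 5. The remaining 8 pairings of UCs differed by 10.6 to 11.6 points. The mean chi-square of the calls per tile, over tiles not fully methylated in both samples, is near 1 for counting error alone and was 1.18 to 1.195 between controls, 1.23 between UC 1 and UC 2 and 1.201 between UC 4 and UC 5, against 3.23 to 4.64 for the remaining 8. UC 1 and UC 2, and likewise UC 4 and UC 5, were thus about as close to each other on these tiles as normal bladders were. The sources do not say whether either pair came from a single animal, and the 5 UCs may count for fewer independent tumours. With the calls of each pair summed, 1133 tiles were lost in all 3 resulting samples and 4268 in exactly 1 of them.

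The 1043 tiles lost in all 5 UCs had mean levels of 82.9%, 85.1% and 84.6% in control 1 to control 3 and of 23.6%, 21.2%, 41.8%, 25.004% and 23.2% in UC 1 to UC 5. UC 3 was thus at an intermediate level and was the highest UC in 770 of these tiles (73.8%). Every UC was under 40% in 346 tiles and under 20% in 38, while UC 1, UC 2, UC 4 and UC 5 were all under 20% in 319. Every control exceeded 80% in 433 of the 1043 (41.5%), compared with 81.4% of all tiles described here, and the control mean exceeded 90% in 75 (7.19%), compared with 48.0%. In 1042 of the 1043 tiles every control was above every UC, a count that the limits of 60% and 80% largely fix.

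The 6 deepest shared losses were taken among tiles with at least 30 calls in every sample, at most 1 per chromosome, by the lowest value of the highest UC. They were picked on the UC levels and so are described without a test. Region 1, chr5:73157201-73157400, held 3 CpGs and lay 395800 bp from the nearest CpG-dense tile. Its levels were 81.7%, 94.7% and 87.3% in the controls and 0%, 1.75%, 0%, 0% and 0% in the UCs. The 4 UCs at 0 had 48 to 103 calls, which allow levels of up to 2.91% to 6.25% (3 calls of the total). The normal bladders were methylated at this site and the tumours were not, with no overlap of the groups.

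Region 2, chr13:26854801-26855000, lay 4400 bp from a CpG-dense tile, with 82.8%, 85.7% and 83.1% in the controls and 1.09% to 7.14% in the UCs. Region 3, chr11:65304201-65304400, had 82.2%, 86.4% and 93.0% in the controls and 5.47%, 2.08%, 2.78%, 9.06% and 3.95% in the UCs. This tile had 850 and 810 calls in UC 4 and UC 5 but 36 to 128 in the other samples. The calls were highest in UC 4 and UC 5, and UC 1 with 128 was also above the controls with 43 to 81. All UCs had low methylation in this tile, and a link with coverage was not tested. Region 4, chr12:6701001-6701200, was at 83.7%, 84.8% and 85.6% in the controls and at 3.64% to 9.29% in the UCs. Of its 4 CpGs measured in every sample, 3 were at 0% to 5.56% in the UCs and the last at 66.7% to 100%. Region 5, chr9:15721401-15721600, with 6 CpGs measured in every sample and 149 to 396 calls, was at 85.9%, 92.3% and 86.6% in the controls and at 2.82% to 10.5% in the UCs. Region 6, chr3:8340401-8340600, with 7 CpGs, was at 78.3%, 81.2% and 82.2% in the controls and at 10.8%, 3.48%, 10.3%, 0.769% and 0.529% in the UCs. In these 5 tiles too the groups lay far apart, and UC 2 was under 4% in each.

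The tiles lost in UC 1 and UC 2 alone were less deep, with mean levels of 47.1% and 45.7% in these UCs, 77.8% to 78.5% in the other UCs and 85.8% to 86.5% in the controls. Those lost in UC 4 and UC 5 alone had means of 47.6% and 47.2%, beside 78.4% to 79.9% in the other UCs and 84.7% to 85.9% in the controls. Those lost in UC 3 alone had a mean of 52.8%, beside 80.3% to 84.7% in the other UCs and 84.96% to 85.71% in the controls. Outside the UCs that defined a pattern, the other UCs were therefore below the controls for each of these patterns. For UC 3 alone the gap was small in UC 1, at 84.73%. The controls had chosen the tiles as high, so this order can be partly set by the choice. The calls behind the losses of UC 3 alone were fewer, with a median of 59.5 calls per tile against 84.0 to 92.3 for the tiles lost in all 5 UCs or in either pair.

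The tiles of these patterns with the widest gap between the lost and the other UCs were again picked on the UC levels. Region 7, chr6:99840201-99840400, was at 89.4%, 93.7% and 92.1% in the controls, at 13.0% and 4.17% in UC 1 and UC 2, and at 86.3%, 93.4% and 95.5% in UC 3 to UC 5. Region 8, chr11:68141001-68141200, was at 17.4% and 9.30% in UC 1 and UC 2 and at 81.4% to 94.9% in the other 6 samples. Region 9, chr2:227770001-227770200, was at 6.56% and 14.1% in UC 1 and UC 2 and at 77.9% to 88.1% in the others. In the levels of these 3 tiles UC 1 and UC 2 lay far below the other UCs. The CpGs of region 9 were uneven, with 1 of the 4 measured in every sample at 85.7% and 70% in UC 1 and UC 2 and another at 39.4% and 37.8% in UC 4 and UC 5.

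Region 13, chr12:30095201-30095400, was at 90.2%, 94.1% and 91.7% in the controls, at 94.7%, 94.0% and 91.8% in UC 1 to UC 3 and at 11.9% and 8.11% in UC 4 and UC 5. It lay 11716 bp from a promoter region of Tpst1 on the list described last, which gene encodes a tyrosylprotein sulfotransferase. Region 14, chr17:76614201-76614400, was at 6.87% and 9.74% in UC 4 and UC 5 and at 79.8% to 97.0% in the other samples, although its CpGs were uneven in the controls (28.6% to 100%). Region 15, chr20:7993001-7993200, with 7 CpGs, was at 10.4% and 5.02% in UC 4 and UC 5 and at 81.1% to 91.2% in the others. As in the tiles of UC 1 and UC 2, the loss was nearly complete in both UCs of the pair.

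Losses limited to a single UC were shallower. Region 10, chr7:143322601-143322800, was at 34.2% in UC 3 (95% Wilson interval 24.5% to 45.4%, from 76 calls) and at 80.5% to 92.9% in the other samples. Region 11, chr17:48151601-48151800, was at 38.8% in UC 3 (26.4% to 52.8%, 49 calls) and at 81.3% to 95.8% elsewhere, and of its 3 CpGs measured in every sample, 2 were at 31.3% in UC 3 and 1 was at 100%. Region 12, chr3:114224001-114224200, was at 52.2% in UC 3 (44.5% to 59.8%, 159 calls) and at 84.5% to 96.1% elsewhere. None of the 3 tiles that were most particular to UC 3 fell under 30% there. These intervals cover counting error only, since calls on the same read are not independent.

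In region 16, chr5:121366001-121366200, UC 1 was at 38.9% (24.8% to 55.1%, 36 calls) and the other samples at 71.7% to 90.3%. Its CpGs were uneven, at 0% to 88.9% in UC 1, and 1 of them was at 43.8% to 61.1% in the controls. In region 17, chr8:64060401-64060600, UC 2 was at 30.8% (20.9% to 42.8%, 65 calls) and the others at 77.5% to 98.8%. In region 18, chr19:1112801-1113000, UC 4 was at 45.7% (32.2% to 59.8%, 46 calls) and UC 5, its near neighbour elsewhere, at 85.3%. The CpGs of region 18 measured in every sample were at 92.9%, 25% and 25% in UC 4. In region 19, chr7:137886201-137886400, UC 5 was at 31.2% (22.7% to 41.2%, 93 calls), UC 4 at 67.3% and the other samples at 83.3% to 97.6%. These 4 tiles were the widest gaps of their kind, and each rested on fewer than 100 calls in the UC concerned.

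The 3 tiles with the most calls among those over 80% in every UC are given as a description, since that choice limits how far their levels can vary. Region 20, chr7:100305201-100305400, with 4473 to 10064 calls, was at 90.1% to 91.5% in the controls and 89.3% to 91.5% in the UCs. Region 21, chr12:1509201-1509400, was at 93.5% to 94.1% and 94.0% to 94.8%, and region 22, chr9:8745201-8745400, at 86.0% to 87.4% and 86.2% to 87.0%. In region 21 the CpG at position 1509384 was at 93.5% to 94.1% in the controls, as was the tile. Its other CpGs were at 80% to 100% in the controls. The groups overlapped in all 3 tiles. The calls of these 3 tiles were far above the median of 72 to 105 calls. Reads with several matches in the genome build had been discarded, and whether reads from copies absent from the build added to these calls was not tested.

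**Figure D3:**
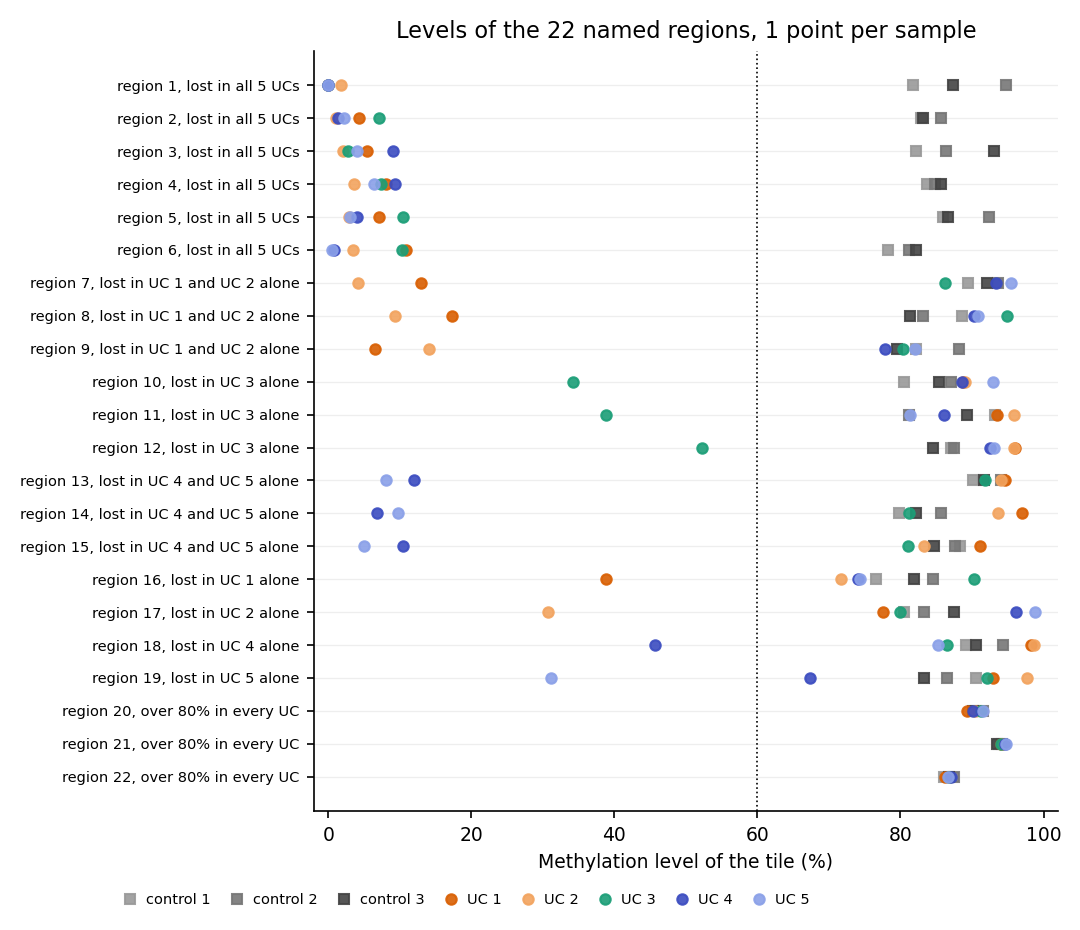
Methylation level (%, horizontal axis) of each of the 22 named regions (rows) in every sample, controls as squares and UCs as circles, with the pattern that chose the row; the dotted line is at 60%. Regions 1 to 6 have all UCs at or below 10.8%, regions 10 to 12 have UC 3 alone between 34.2% and 52.2%, and regions 20 to 22 have all samples between 86.0% and 94.8%.

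The levels of CpGs around a lost tile had no part in choosing that tile or its pattern, and showed how far a loss reached. Those nearest can share a read with the tile, and some lie in a neighbouring tile that was itself counted as lost. Around the 1043 tiles lost in all 5 UCs, CpGs at 200 to 300 bp from the tile centre were at 74.3%, 74.97% and 75.5% in the controls and at 38.9%, 35.1%, 52.1%, 37.9% and 35.5% in UC 1 to UC 5. At 600 to 800 bp they were at 71.3% to 73.2% in the controls and 52.8% to 58.8% in the UCs, and at 1500 to 2000 bp at 64.5% to 66.8% and 59.4% to 61.5%. The UCs were below every control in all bins up to 2000 bp. The shared losses were thus the centres of low stretches that reached well beyond the tile, in UC 3 as well.

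Around the 810 tiles lost in UC 1 and UC 2 alone, CpGs at 200 to 300 bp were at 61.1% and 61.8% in these UCs, at 68.6% to 71.9% in the other UCs and at 77.6% to 77.95% in the controls. At 600 to 800 bp, UC 1 and UC 2 (72.8% and 71.8%) lay where the other UCs lay (71.8% to 73.4%). Around the 1551 tiles lost in UC 4 and UC 5 alone, CpGs at 200 to 300 bp were at 65.5% and 63.5% in these UCs, at 73.8% to 75.8% in the other UCs and at 78.1% to 79.3% in the controls, and at 1500 to 2000 bp UC 4 and UC 5 were still at 62.1% and 61.7%, against 65.4% to 67.5% in all other samples. Around the 468 tiles lost in UC 3 alone, UC 3 was at 71.8% at 100 to 200 bp, against 77.3% to 80.6% in the other samples, and at 73.8% at 200 to 300 bp, against 74.2% to 80.5%. Around the tiles lost in no UC, UC 4 and UC 5 were also the lowest samples at 1500 to 2000 bp, at 72.3% and 71.6% against 72.5% to 75.5%. At 200 to 300 bp the patterns of 2 UCs were present in neighbouring CpGs as well. The tiles of UC 3 alone were the narrowest of the 4 kinds and also had the fewest calls.

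**Figure D4:**
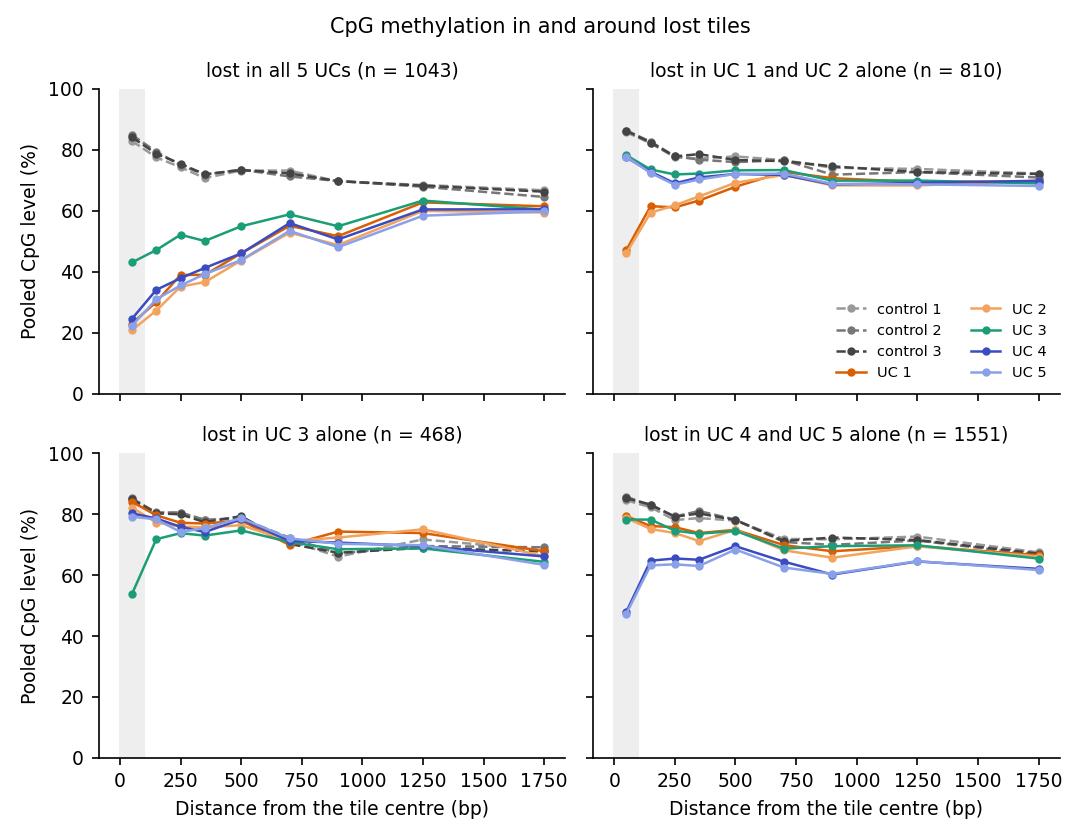
Pooled methylation level (%, vertical axis) of CpGs by distance from the tile centre (bp, horizontal axis), in 1 panel for each of 4 loss patterns, with 1 line per sample and controls dashed; the grey band is the tile itself, whose level set the pattern. In the panel of the tiles lost in all 5 UCs the UCs rise from 20.8% to 43.1% in the tile to 58.4% to 63.4% at 1000 to 1500 bp, while in the panel of UC 3 alone the UC 3 line is near the others from 200 bp on.

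Losses in all 5 UCs and losses limited to UC 3 or to a pair of UCs also differed in where they lay. With distance from CpG-dense DNA, the share of tiles lost in all 5 UCs fell at every step, from 1.51% (90 of 5971 tiles) at 2 to 5 kb through 1.47%, 1.36%, 1.23%, 0.988% and 0.776% to 0.498% (85 of 17072) beyond 200 kb. The shares lost in UC 1 and UC 2 alone (0.703% to 0.938%) and in UC 3 alone (0.357% to 0.545%) showed no such fall, and that of UC 4 and UC 5 alone was 1.61% at 2 to 5 kb and 1.93% beyond 200 kb. Of the tiles lost in all 5 UCs, 37.7% lay within 20 kb of a CpG-dense tile, compared with 27.8% of all tiles described here. Among tiles of 3 to under 4 CpGs, the shared losses were 1.73% at 2 to 5 kb, 1.88% at 5 to 10 kb and 0.636% beyond 200 kb. Among tiles with at least 30 calls in every sample they were 1.44%, 1.51% and 0.477% in the same bins. In both cases the first step was thus a rise. With at least 30 calls there was also a slight rise from 1.246% at 10 to 20 kb to 1.255% at 20 to 50 kb.

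With the number of CpGs, the share of tiles lost in exactly 1 UC fell, and the share lost in all 5 UCs changed less. The tiles lost in exactly 1 UC were mostly not private by the stricter reading. Only 195 of these 3153 tiles had the other 4 UCs over 80%. Whether the share of those 195 varied with the number of CpGs was not tested. Tiles lost in exactly 1 UC made up 4.25% of the tiles with 3 to under 4 CpGs and 1.19% of those with 7 to under 10, while tiles lost in all 5 UCs made up 1.11% and 0.886%. With at least 30 calls in every sample these were 3.43% and 1.14% for 1 UC, and 1.09% and 0.892% for all 5. The levels of tiles with few CpGs rest on fewer calls, and the share lost in exactly 1 UC was 5.39% in the lowest quintile of calls and 1.33% in the highest, against 1.13% and 1.15% for all 5. The part of depth in the losses in exactly 1 UC was not tested.

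**Figure D5:**
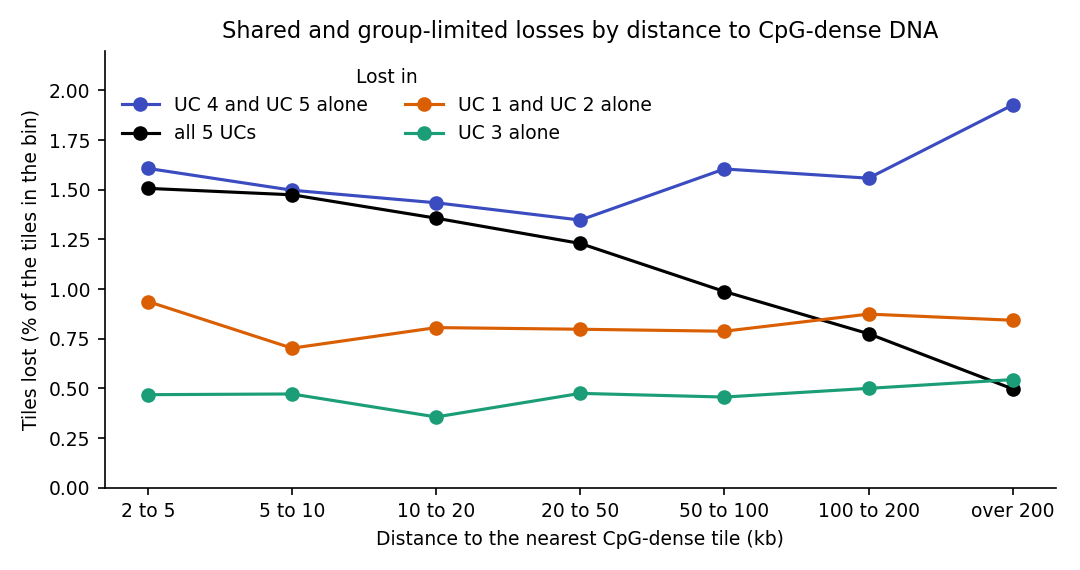
Share of the highly methylated open-sea tiles lost in all 5 UCs, in UC 4 and UC 5 alone, in UC 1 and UC 2 alone and in UC 3 alone (% of the tiles of each bin, vertical axis) by distance to the nearest CpG-dense tile (kb, horizontal axis). The line of all 5 UCs falls from 1.51% to 0.498%, whereas that of UC 4 and UC 5 alone stands at 1.61% in the first bin and 1.93% in the last.

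Where a tile was lost in a UC, the next such tile up to 200 bp away was lost in the same UC in 37.5%, 37.6%, 34.2%, 23.7% and 29.4% of cases in UC 1 to UC 5, compared with 1.02% to 2.74% where the first tile was not lost. At 5 to 20 kb these were 4.44% to 8.27% and 2.49% to 5.45%. For a loss in all 5 UCs they were 35.1% and 0.422% up to 200 bp, 3.96% and 1.21% at 5 to 20 kb and 2.95% and 0.955% at 20 to 100 kb. Of 970 runs of neighbouring tiles lost in all 5 UCs, 905 (93.3%) were of 1 tile. The longest held 5 tiles over 28600 bp, chr3:171308201-171336800, with means of 82.1% to 86.3% in the controls and 24.4% to 38.6% in the UCs. The longest run of UC 4 and UC 5 alone held 3 tiles, chr2:33598201-33606800, with means of 44.5% and 39.0% in these UCs and 81.0% to 83.6% in the other UCs. In UC 3 alone, a run of 2 tiles at chr7:143317201-143322800 included region 10 and had a mean of 34.0% in UC 3 and of 87.8% to 91.7% in the other UCs.

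Over 1655 windows of 1 Mb with at least 20 such tiles, the median share lost was 3.23%, 3.33%, 1.56%, 4.35% and 4.48% in UC 1 to UC 5, and 0 to 5 windows per UC exceeded 20%. The window with the highest mean share was chr2:226000001-227000000, with 25.8%, 29.0%, 19.4%, 16.1% and 19.4% of its 31 tiles lost in UC 1 to UC 5. A different order was found at chr15:103000001-104000000, which held 157 tiles. There 33, 36 and 26 tiles (21.02%, 22.9% and 16.6%) were lost in UC 1, UC 2 and UC 3, but 8 and 10 (5.10% and 6.37%) in UC 4 and UC 5. The mean level over this window was 90.1% to 90.8% in the controls, 75.5%, 74.6% and 79.6% in UC 1 to UC 3, and 86.4% and 86.2% in UC 4 and UC 5. Its share of all calls was 0.973 to 1.09 times the control mean in every UC. The window held 17 of the 182 tiles lost in UC 1, UC 2 and UC 3 alone (9.34%), although it held 0.158% of all tiles described here. These windows were picked by their losses and are described without a test.

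The share lost in all 5 UCs was 0.639% on chromosome 20 and 1.58% on chromosome 12, which were the extremes, and the share lost in UC 5 was 4.27% on chromosome 15 to 6.16% on chromosome 9. Windows of 1 Mb whose share of the calls was under 0.7 or over 1.4 times that of the controls in some UC held 9415 tiles (9.49%). In windows under 0.7, the share lost was 4.37% in UC 1 and 4.74% in UC 2, against 3.81% and 3.98% in windows of even coverage. The G calls on the opposite strand, by which the authors' caller corrects for base variants, left 99.9% to 100.0% of the calls in tiles lost in all 5 UCs and 99.9% in tiles lost in none, and with this correction the tiles lost in all 5 UCs numbered 1045.

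A list of 246 promoter regions chosen for hypermethylation in these same UCs was also compared by position. Of these, 225 had a highly methylated open-sea tile within 50 kb, and 8 had one that was lost in all 5 UCs. Of the 1320 tiles within 50 kb, 10.5% were lost in at least 1 UC and 0.606% in all 5, against 8.74% and 1.06% of the tiles farther away. The list is not independent of these samples.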

How the data were processed

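RRBS calls of 3 control bladders and 5 UCs were used. Per the methods, reads were trimmed and mapped by the authors with RRBSMAP (build rn6), reads with several matches were discarded, and duplicates were collapsed by a random barcode. The deposited files give, per CpG with at least 3 reads, counts of C and of C plus T calls; the deposited effective counts are expected counts corrected for base variants by the G share on the opposite strand, and the deposited ratio is a fraction that was not used here. HOMER is named in the submitters' processing notes.

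Calls were summed over 200-bp tiles with at least 3 CpGs in every sample. The members, lists, limits and tests were chosen with earlier results of these data known. The quasi-binomial fit with dispersions moderated by limma 3.58.1 (R 4.3.3) and an F-test covered all 258144 tiles, with Benjamini-Hochberg adjustment, and was tested on simulated data. It stands in place of the study's own test, whose regions were not analysed here. The labels do not say that samples are separate animals, so p-values measure the spread between these samples.

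Named regions were chosen among tiles with at least 30 calls in every sample and at most 1 per chromosome and list: the 6 with the lowest highest UC among those lost in all 5 UCs, the 3 with the widest gap for UC 1 with UC 2, UC 3, and UC 4 with UC 5, the widest for UC 1, UC 2, UC 4 and UC 5 alone, the 3 deepest retained, the tiles nearest the 80% limit, and the longest runs (gaps of at most 50 kb). The windows, and the stricter reading of a private loss, were chosen after seeing the data. Python 3.11.15 with numpy 2.4.6, pandas 2.3.3, scipy 1.17.1 and matplotlib 3.10.9 was used. Sequences, genes and repeats at the tiles need an rn6 genome and were not analysed here. Alternatives were other limits, depths, levels, tile positions, fits and left-out samples.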

Additional observations from a re-analysis of the deposited data

Results flagged for a closer look

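Of 35 measures examined for a UC far from the other 4 (a gap over 0.71 of the range of the 5), 4 met the limit. For independent values chance gives about 1 in 20. Here UC 1 and UC 2, and UC 4 and UC 5, were close to each other and the measures overlap, so the count cannot be set against that rate. UC 3 stood apart in the share of tiles under 20% (0.0695%, against 0.664% to 0.828% in the other UCs) and in the share under 40% (0.538%, against 1.56% to 1.74%). UC 3 also stood apart in the mean level of the tiles lost in all 5 UCs (41.8%, against 21.2% to 25.004%). In region 1, UC 2 stood apart at 1.75% with the other 4 UCs at 0%, a difference of 1 call of 57. Regions picked for a gap between UCs were not examined in this way.

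Chromosome X, which the choice of tiles leaves out, held 1596 tiles of the same kind. The shares lost were 2.63%, 2.82%, 1.003%, 3.88% and 3.76% for UC 1 to UC 5, against 0.254% to 0.440% in a control left out. All 5 UCs had lost 1 of the 1596 (0.0627%).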

How the results depend on the processing

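The counts of lost tiles depended on the limits. With lost set at under 50%, 607 tiles were lost in all 5 UCs, 1545 in exactly 1 and 4752 in at least 1; at under 70% these were 1987, 6219 and 17033. With at least 30 calls in every sample, 1809 were lost in exactly 1 UC and 5693 in at least 1, and with at least 10 reads per CpG, 530 in all 5, 1054 in exactly 1 and 3509 in at least 1 of 48726 tiles. With every control over 80% the counts were 433, 1838 and 4762 and the mean UC level 89.3%, and with a control mean over 90% they were 75, 581 and 1312 and 92.0%. Counting a private loss only where the other 4 UCs were over 80%, an alternative chosen after seeing the data, left 195. Leaving out 1 sample gave 1016 to 1793 tiles lost in all UCs, the highest without UC 3, 2823 to 4027 lost in exactly 1, 7746 to 9198 in at least 1, and mean UC levels of 87.4% to 88.0%. The mean of CpG levels, the effective count, shifted tiles, a distance over 5000 bp, merged UCs and windows of even coverage kept these counts within 1.5 times.

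The 5140 tiles called lower in the fit of all samples numbered 3175 without moderation, 3328 with a difference over 20 points, 2642 with at least 10 reads per CpG, 2644 with the calls of the close UCs merged, and 2388 to 6920 with 1 sample left out; without control 1, control 2 and control 3 they were 2856, 2601 and 2388. With a replicate block they were 1138; the numbers 1 to 3 do not pair controls with UCs, whose deviations correlated at -0.0109, 0.00273 and 0.0151. Choosing on control 2 or control 3 kept the independent count (2312) within 1.5 times. Of 235 recomputed differences of the 22 named regions, 226 moved by less than 1 SD of the 5 UC levels of the region and 9 by more. Leaving out 1 of 5 UCs cannot move a difference by 1 such SD, so the count of 226 is partly fixed. The sign changed in 13 of the 235 differences, in 8 regions (10 to 12, 17 to 20 and 22). For regions 10, 11, 12, 17, 18 and 19 it did so when the UC that defined the loss was left out (5.50, 1.31, 8.02, 4.30, 0.878 and 0.680 points). The 6 named regions called lower kept their sign. The named regions with losses were picked on the UC levels, so nothing is read from this. Of the 22, 7 had no value at 10 reads per CpG. Depth limits the tiles of few CpGs, where losses in exactly 1 UC are most frequent.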
